A study of Homo sapiens with 8 samples.

Results

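The genes described here are those expressed in BEAS-2B cells that carried an empty vector and had been exposed to cigarette smoke extract (CSE). BEAS-2B, an established cell line, descends from virus-transformed human bronchial epithelium and was grown in DMEM with serum. Transfection with the empty vector (pcDNA3.1, with a lipid reagent) lasted 12 h, CSE was then given for 24 h, and 3 RNA-seq libraries were made. The same study also holds libraries from cells transfected with JunD, which were not analysed here, and a chromatin immunoprecipitation (ChIP) of JunD from cells given 8% CSE for 24 h. For the RNA libraries the sources used here give no CSE concentration. All 3 libraries had both the empty vector and CSE, so no level below can be set against untransfected or unexposed cells. The libraries are numbered 1 to 3, nothing in the labels ties them to separate cultures, and their spread may be technical. What follows is a description of levels, with no test between groups.

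Levels are RPKM, reads per kilobase of exon, scaled to the reads assigned to genes in each library. Included were genes with a mean of at least 1 RPKM over the 3 libraries, 13049 of the 29534 gene names in the table, or 44.2%. Of 15648 names matched to a nuclear protein-coding gene, 9884 reached that level, or 63.2%, and this share is the background against which each gene list below is given. The cut lay in a dense part of the distribution: 283 names had means from 1 to 1.1 and 292 from 0.9 to 1. The nearest protein-coding genes were SIK1, at 1.0003 RPKM, and PLEKHG5, at 0.9996 RPKM. Assigned reads came to 17728754, 29617655 and 17871765 in libraries 1 to 3. Library 3 stood somewhat apart from the others, as its spread below shows.

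An airway epithelial cell is recognised by keratin filaments, by adherens and tight junctions built on E-cadherin and claudins, and by transcription factors that hold the epithelial state, while mesenchymal cells carry vimentin, N-cadherin and a fibronectin-rich matrix. Smoke brings aromatic hydrocarbons, which bind the aryl hydrocarbon receptor (AHR) and switch on cytochrome P450 genes, and reactive aldehydes and oxidants, which release the factor NRF2 to switch on genes of glutathione and thioredoxin metabolism. Oxidised proteins and metals are met by heat shock proteins, metallothioneins and ferritin, and AP-1, a dimer of JUN and FOS family proteins that includes JunD, is part of the early response to such stress.

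The levels spanned more than 4 orders of magnitude on a log scale, and a small set of genes held much of the signal. A level of at least 10 RPKM was reached by 4525 names, at least 100 by 449 and at least 1000 by 34. The median of the names at or above 1 RPKM was 5.76 RPKM. The 10 highest names held 20.5% ± 0.311 of the summed RPKM (SD, n = 3) and the 100 highest held 42.1% ± 0.389. Most of that top set was mitochondrial: genes of the mitochondrial genome took 5.27% ± 0.0482 of the assigned reads, and without them the 10 highest names held 7.82% of the summed RPKM. All 37 names of the mitochondrial genome passed 1 RPKM, from 10.4 for the transfer RNA MT-TF to 18865 for MT-ATP8, whose short reading frame overlaps that of MT-ATP6 (12195 RPKM). At the other end, 2436 names had no read in any of the 3 libraries, among them 634 protein-coding genes, or 4.05% of the 15648 in the table. Listed genes with no row, such as FOXJ1, SFTPC, CD3D and HBB, are not in these counts. Whether genes were left out of the table for lack of reads is not known. Shares of silent genes may therefore be too low, and shares at or above 1 RPKM, the background included, too high. A count of 0 over the 3 libraries allows up to 3 reads, and the matching RPKM limit is given below where a silent gene matters. It covers counting error only.

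**Figure D1:**
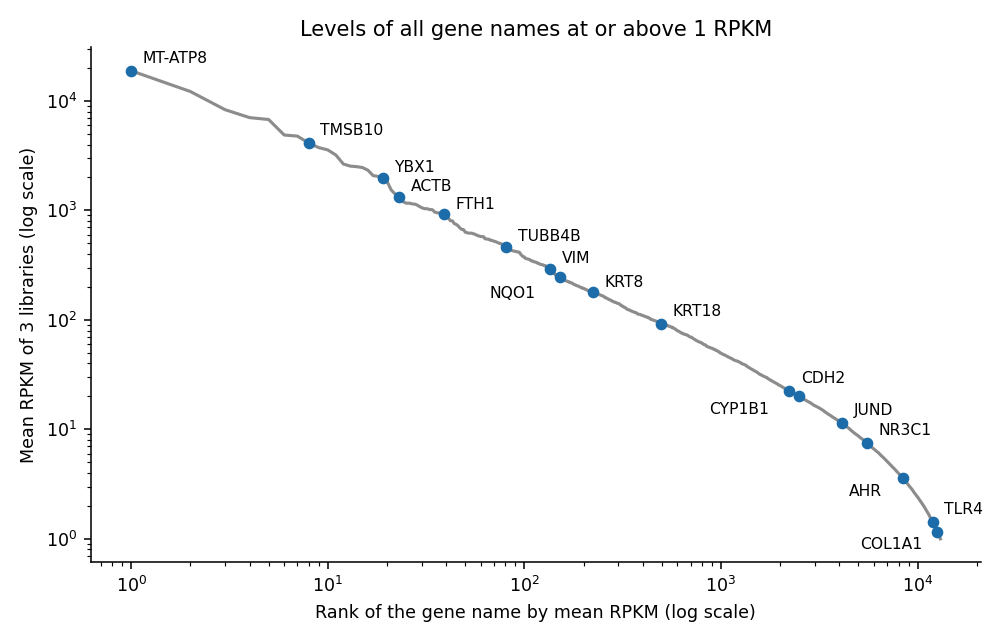
Mean RPKM of the 3 libraries against rank for all 13049 gene names at or above 1 RPKM, both axes on a log scale, with genes named in the text marked. The curve runs from MT-ATP8 at 18865 RPKM down to 1 RPKM, and KRT8 (rank 222) and VIM (rank 135) lie far above CYP1B1 (rank 2486) and AHR (rank 8410).

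Of nuclear protein-coding genes TMSB10, thymosin beta 10, which binds actin monomers, was highest, with 4382, 3939.5 and 4046 RPKM in libraries 1 to 3 (4123 ± 231, SD, n = 3). YBX1, a DNA- and RNA-binding protein, followed with 1937, 1971 and 2012 (1973 ± 37.4). HSP90AA1, the inducible cytosolic HSP90, stood at 1285, 1461 and 1489 (1412 ± 111), and beta-actin ACTB at 1421, 1366 and 1231 (1339.5 ± 97.7). HSP90AA1 was lowest in library 1 and ACTB lowest in library 3, so the order of this pair differed between libraries. The others above 1000 RPKM were PTMA, prothymosin alpha, at 1165 ± 46.0, HSP90AB1, the constitutive HSP90, at 1137 ± 86.3, and the nucleosome-binding HMGN2 at 1016 ± 21.4.

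The next ranks mixed structure, metabolism and iron storage. Non-muscle myosin MYH9 (964 ± 47.4 RPKM), GAPDH (948 ± 50.8), ACTG1 (934 ± 63.3), ferritin heavy chain FTH1 (921 ± 66.6) and the complex I subunit NDUFS5 (895 ± 32.4) came next, each within 1 SD of its neighbour in this order. RPL23A stood at 852 ± 25.5, the nucleolar protein NPM1 at 806 ± 34.7, ferritin light chain FTL at 803 ± 111, metallothionein MT2A at 746 ± 62.1 and the calcium-binding chaperone CALR at 723 ± 14.99. BEX1, a small adaptor protein best known from neurons, stood at 679, 668 and 658 (668 ± 10.2), rank 49 of all names. NCL, nucleolin, had 621 ± 36.9. The twentieth was the read-through name RPL36A-HNRNPH2 at 606 ± 24.9, all of whose exon bases belong to other genes.

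Shared exon bases bear on many of these values. Of the 13049 names, 2976 have 20% or more of their exon bases in common with a second name. The sources used here do not state the strand setting of the counting, so for such a pair it cannot be told which name a read came from. They also do not state whether a read could count for more than 1 name. RPL36A-HNRNPH2 and ZFP91-CNTF share all their exon bases and still had 27451 and 10400 reads. Assigned reads, and shares of them, may therefore hold reads counted more than 1 time. FTH1 shares 62.4% with BEST1 and VIM 24.4% with VIM-AS1. The same 20% is reached by ACTA2, IL6, NFE2L2, PTGR1, CBR3, GSTM1, PRDX1, ATF5, CA9, ERCC1, TRPV1, TLR9, SNHG6 and ZNF593, whose values below carry this limit. Among nuclear names matched to a noncoding biotype the highest, MIR1282 (3571 ± 249 RPKM), lies wholly within SERF2. Of the 10 highest such names, MIR3661, NUCB1-AS1, SENP3-EIF4A1, SNORD86, VIM-AS1 and ODF2-AS1 also share more than 40% or, for VIM-AS1, 32.2% of their exon bases with a neighbour, EZR-AS1 and UBE2Q1-AS1 share 11.1% and 11.8%, and only MIR6819 (107 ± 4.18) shares none. A gene's exon length also counts every exon of the annotation: the median protein-coding name had 4766.5 bases, so a gene with long, seldom used exons has a lower RPKM than its main transcript alone would give.

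The share of CpG-rich promoters rose with the level. RefSeq entries (GRCh38.p14) of 300 bases, from 250 before to 50 after a gene's start, were matched for 12683 protein-coding genes, 81.1% of them. An entry was called CpG-rich when its CpG count was at least 0.6 of that given by its C and G content. By this measure 33.0% of genes with 0 reads were CpG-rich, 55.5% of genes with reads but below 1 RPKM, 85.0% from 1 to 10 RPKM, 90.6% from 10 to 100 and 90.9% at 100 or more. The share in all 27305 promoter entries was 49.0%. Those entries were not limited to protein-coding genes, so here and below they are not a like background for the classes. Median GC content rose only in part, from 55.7% at 0 reads to 66.0% from 1 to 10 RPKM, and was 64.3% at 100 or more. The TATA box letters TATAAA were searched on both strands of the 250 upstream bases. They went the other way at first, from 15.4% of silent genes to 4.56% from 1 to 10 RPKM. Genes with reads but below 1 RPKM held them in 9.80%, those from 10 to 100 in 4.72% and the highest class in 9.85% (11.1% of all entries). CCAAT, the NF-Y letters, were in 42.8% of the highest class and 31.8% of silent genes (33.0% of all entries). GGGCGG, the GC box bound by SP1, was in 72.3% and 33.8% (42.3% of all entries).

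The 250 upstream bases of 6 genes are printed to show what stands before the highest levels: the 3 highest nuclear protein-coding genes, and the highest member with a promoter entry among the metallothioneins, the keratins and the NRF2 target genes. FTH1 heads the last group and is named only. Capitals mark letters found on either strand for the TATA box TATAAA, for the NF-Y letters CCAAT, for the GC box GGGCGG, the AP-1 letters TGANTCA, the antioxidant response letters TGACNNNGC and the heat shock letters GAANNTTC, and in MT2A also the metal response letters TGCNCNC. A match is a description of letters, not a site shown to be bound, and the RefSeq start can differ from the outermost start in the expression table. Which start of a gene gave its reads was not tested. The HSP90AA1 entry lies at the outer end of a gene placed at 102080738-102139699. The KRT8 entry lies inside a gene placed at 52897187-52949954. Letters in or missing from an entry need not be those before the main transcript. TMSB10 (chr2:84905406-84905655, plus strand), YBX1 (chr1:42682168-42682417, plus), HSP90AA1 (chr14:102139750-102139999, minus), MT2A (chr16:56608334-56608583, plus), KRT8 (chr12:52926470-52926719, minus) and FTL (chr19:48965059-48965308, plus) read, 5′ to 3′:
TMSB10: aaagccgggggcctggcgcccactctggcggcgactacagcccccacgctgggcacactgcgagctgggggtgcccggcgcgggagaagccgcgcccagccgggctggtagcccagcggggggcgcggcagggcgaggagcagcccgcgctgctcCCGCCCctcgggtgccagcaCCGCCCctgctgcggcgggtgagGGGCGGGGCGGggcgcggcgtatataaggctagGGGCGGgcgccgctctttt
YBX1: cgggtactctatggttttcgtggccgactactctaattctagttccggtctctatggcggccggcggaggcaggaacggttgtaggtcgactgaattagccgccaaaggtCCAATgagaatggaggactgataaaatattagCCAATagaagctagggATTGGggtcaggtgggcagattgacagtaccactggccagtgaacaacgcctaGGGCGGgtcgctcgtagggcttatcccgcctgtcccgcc
HSP90AA1: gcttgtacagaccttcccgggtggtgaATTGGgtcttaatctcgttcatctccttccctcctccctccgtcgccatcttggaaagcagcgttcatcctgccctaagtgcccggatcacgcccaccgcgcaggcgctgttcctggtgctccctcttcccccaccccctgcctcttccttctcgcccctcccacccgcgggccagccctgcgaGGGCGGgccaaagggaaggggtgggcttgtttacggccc
MT2A: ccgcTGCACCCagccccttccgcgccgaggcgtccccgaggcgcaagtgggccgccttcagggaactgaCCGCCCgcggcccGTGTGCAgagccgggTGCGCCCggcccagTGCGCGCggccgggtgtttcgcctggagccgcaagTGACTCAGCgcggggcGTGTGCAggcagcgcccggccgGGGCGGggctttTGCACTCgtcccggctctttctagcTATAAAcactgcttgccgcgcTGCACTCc
KRT8: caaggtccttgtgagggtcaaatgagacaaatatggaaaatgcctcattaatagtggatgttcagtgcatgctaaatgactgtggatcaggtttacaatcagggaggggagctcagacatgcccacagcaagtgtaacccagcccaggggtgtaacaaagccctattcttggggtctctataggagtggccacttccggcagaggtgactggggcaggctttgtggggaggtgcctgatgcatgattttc
FTL: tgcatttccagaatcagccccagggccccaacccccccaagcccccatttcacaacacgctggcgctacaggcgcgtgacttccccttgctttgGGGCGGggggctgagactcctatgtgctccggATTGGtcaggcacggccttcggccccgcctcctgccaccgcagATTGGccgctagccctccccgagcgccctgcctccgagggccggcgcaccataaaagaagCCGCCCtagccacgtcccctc

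TMSB10 carried 5 matches to GGGCGG and none to CCAAT, while YBX1, HSP90AA1 and FTL held both sets of letters, YBX1 with 3 matches to CCAAT. MT2A was the one with TATAAA, at 29 bases before the start, and with TGACTCAGC, 104 to 96 bases before the start, which holds the AP-1 and the antioxidant response letters together. MT2A also had 7 matches to the metal response letters. Of all promoter entries, 6.60% hold TGANTCA, 11.03% TGACNNNGC, 48.4% TGCNCNC and 5.85% GAANNTTC. The KRT8 entry held none of the 6 letter sets and had a CpG ratio of 0.111, against 0.962 for MT2A. Whether the KRT8 reads came from this start, which lies inside the gene, was not tested.

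The cell type label was checked against its markers, and it held only in part. Simple-epithelial keratins, which form the filaments of single-layered epithelia, were abundant: KRT8 had 183, 176 and 176 RPKM in libraries 1 to 3 (179 ± 3.92), KRT7 159, 158 and 141 (153 ± 10.0) and KRT18 97.5, 94.5 and 85.3 (92.4 ± 6.32). All 3 of these keratins were highest in library 1. KRT8 stood 1.94 ± 0.112 times as high as KRT18, its partner in the filament. KRT80 had 8.32 ± 0.466, while KRT19, a keratin of most airway epithelia, had 4 reads in all (0.0289 RPKM), and 4 of 7 genes of the list reached 1 RPKM. In bulk RNA, fewer cells of a type and less RNA per cell cannot be told apart.

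The genes that join epithelial cells were at or near zero at their defining members. E-cadherin CDH1 had 0.0274, 0.0492 and 0.0996 RPKM, from 23 reads over the 3 libraries, and EPCAM, an epithelial adhesion molecule, 0.179, 0.147 and 0.133. The epithelial splicing factors ESRP1 and ESRP2 stood at 0.00383 and 0.0558. Parts of the junction shared with other cells were well expressed: alpha-catenin CTNNA1 at 71.3 ± 0.777, beta-catenin CTNNB1 at 18.2 ± 1.23, TJP1 at 15.7 ± 0.648 and p120-catenin CTNND1 at 12.6 ± 0.0289. Occludin OCLN was low at 2.33 ± 0.0717, and of the claudins named first in the list CLDN1 had 0.634 and CLDN2 0.00330. In all, 12 of 31 junction genes reached 1 RPKM, with a median of 0.483.

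Mesenchymal genes were the most complete of the identity lists. 26 of 30 reached 1 RPKM, with a median of 57.1, and their summed level was 2689, 2606 and 2615 RPKM in libraries 1 to 3, against 193, 191 and 193 for the junction genes. Vimentin VIM had 302, 304 and 267 (291 ± 20.7) RPKM, which is 1.63 ± 0.105 times KRT8 within a library, and the reads of VIM and VIM-AS1 cannot be told apart. Tropomyosin TPM2 stood at 534 ± 14.0, myosin light chain MYL9 at 306 ± 21.0, the matrix glycoprotein SPARC at 159 ± 13.9 and fibronectin FN1 at 111 ± 6.31. N-cadherin CDH2 had 22.1, 22.5 and 23.2 (22.6 ± 0.554), so that every library held far more CDH2 than CDH1. The transcription factors known to repress E-cadherin were mostly present, SNAI2 at 10.7 ± 0.490, ZEB1 at 8.92 ± 0.633, TWIST1 at 7.18 ± 0.768 and ZEB2 at 4.59 ± 0.208, while SNAI1 had 0.876 ± 0.0878. Smooth muscle actin ACTA2 had 0.544 and PRRX1 a single read.

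Fibroblast markers split. THY1, a surface glycoprotein, had 76.1, 74.1 and 69.7 (73.3 ± 3.26) RPKM, COL5A1 30.8 ± 3.05 and COL6A1 24.3 ± 1.56, but COL1A1, the main fibrillar collagen chain, had 1.16 ± 0.228, its partner COL1A2 0.0168, and PDGFRA 1 read. FN1 stood 97.5 ± 14.7 times as high as COL1A1. 7 of 15 fibroblast markers reached 1 RPKM.

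Basal cells, the stem cells of the airway lining, are marked by TP63, KRT5 and KRT14. TP63 had no read in any library, which allows up to 0.00617 RPKM, and KRT5 and KRT14 had 2 reads each. The basal list still had 8 of 16 genes at or above 1 RPKM, led by the laminin receptor chain ITGA6 at 37.5 ± 1.12, the laminin chain LAMB3 at 25.9 ± 1.28, the cytoskeletal linker DST at 11.3 ± 0.484, BCAM at 10.7 ± 1.12 and the calcium-binding S100A2 at 6.03 ± 0.288. Of the squamous keratins KRT17 had 14.6, 10.9 and 14.3 (13.3 ± 2.05), lowest in library 2, and KRT10 4.84 ± 1.37, and 2 of 8 of that list passed.

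Most markers of the specialised airway and alveolar cells were below 1 RPKM. No club or serous marker reached 1 RPKM (0 of 9, summed level 0.353, 0.471 and 0.253 RPKM): SCGB1A1, the main club cell secretion, had 7 reads, and PIGR and BPIFB1 none. Among goblet and mucin markers 1 of 12 passed, CREB3L1, a membrane-bound transcription factor of secretory cells, at 59.1, 58.3 and 62.3 (59.9 ± 2.15), while the mucins MUC1, MUC4, MUC5B and MUC5AC had 0.816, 0.00703, 0.00323 and 0.00108. Of the ciliated markers 3 of 20 passed, and TUBB4B, a beta-tubulin also used by dividing cells, made up most of their sum with 496, 477 and 422 (465 ± 38.5). The more specific CCDC39, for assembly of the ciliary inner dynein arm, had 1.68 ± 0.0295 and CCNO, a factor of centriole amplification, 1.17 ± 0.0916, while RFX2 and MCIDAS lay just below at 0.992 ± 0.0535 and 0.819 ± 0.0788. The dynein DNAH5 had 0.0901, and DNAH9 and GMNC no read. Alveolar markers gave 2 of 9, CAV1 at 64.9 ± 4.03 and ABCA3 at 1.47 ± 0.156, with no read of SFTPB. Ionocyte and neuroendocrine markers gave 2 of 8, the ubiquitin hydrolase UCHL1 at 50.7 ± 2.44 and the enolase ENO2 at 13.3 ± 0.257, with no read of CHGA.

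Markers of cells that should be lacking from a line were low. Leukocyte markers gave 1 of 13, CD68 at 38.7 ± 2.17, a lysosomal protein gene that shares 85.8% of its exon length with another name, and the pan-leukocyte PTPRC had 3 reads. Endothelial markers gave 0 of 11 and a summed level of 0.495 RPKM, with no read of PECAM1, and red blood cell and muscle markers gave 0 of 8 and a summed 0.359 RPKM. Below 1 RPKM the highest members of these lists were CPA3 with 73 reads (0.855, 0.658 and 0.273 RPKM), ROBO4 with 134 reads (0.293) and TNNT2 with 135 reads (0.288).

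Among lung and epithelial transcription factors 19 of 36 reached 1 RPKM, a lower share than the 63.2% of protein-coding genes. The highest were HOXB7, a homeobox factor, with 26.7, 28.1 and 32.4 (29.1 ± 2.94), the AP-2 factor TFAP2A at 13.8 ± 0.545, IRX3 at 13.6 ± 0.242 and the inhibitor ID3 at 12.9 ± 1.51. SOX9, a factor of lung progenitors and cartilage, had 6.03 ± 0.248 and KLF5 4.55 ± 0.0957. The factors that open airway epithelial chromatin were low: FOXA1 had 0.0942, FOXA2 0.0259, GRHL1 0.369, GRHL3 0.00763 and ELF3 0.0803. NKX2-1, SOX2 and GRHL2 were not matched to a row and were not analysed here.

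**Figure D2:**
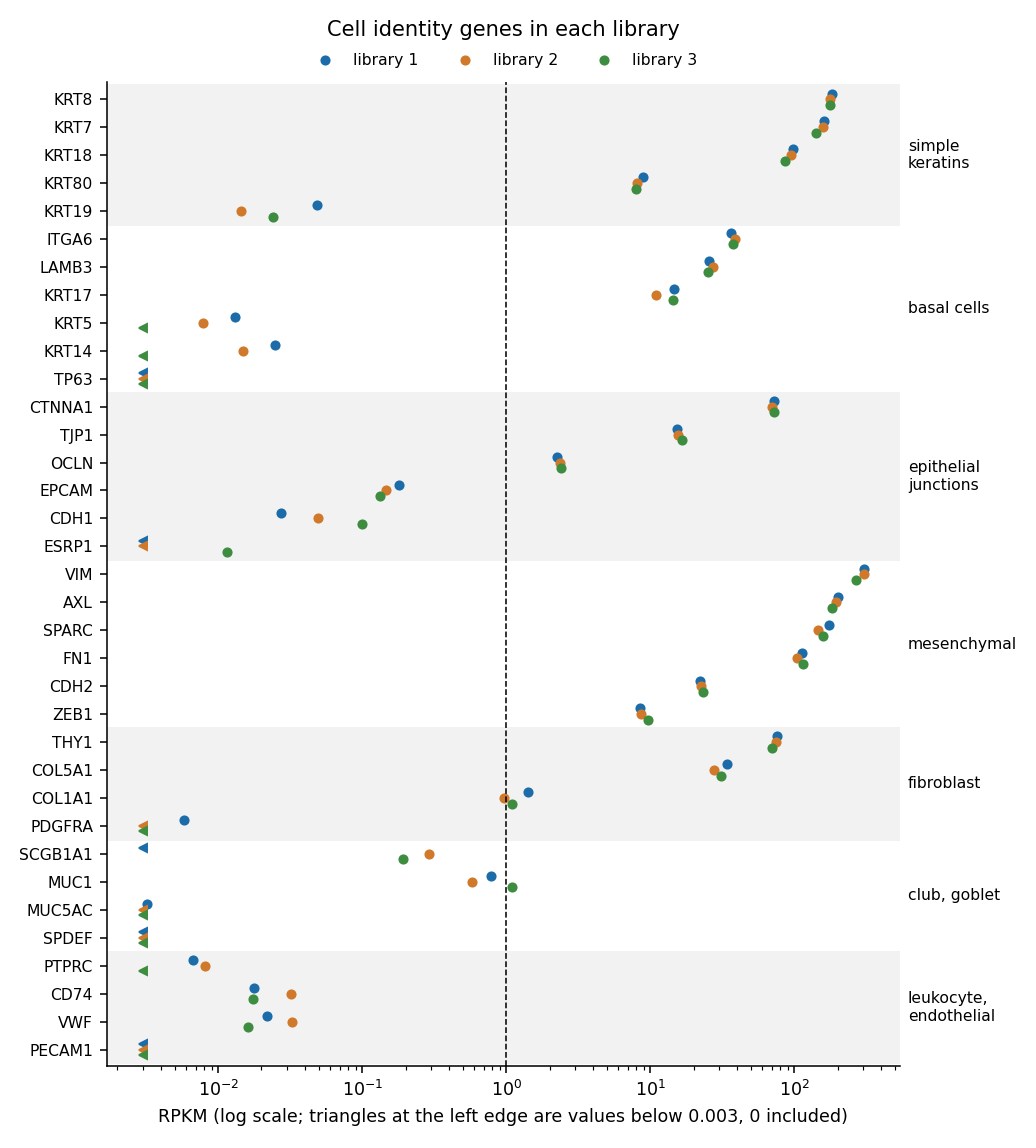
RPKM of cell identity genes in each of the 3 libraries (1 point per library, log scale, dashed line at 1 RPKM, triangles for values below 0.003). KRT8, KRT7 and KRT18 and the mesenchymal genes lie far to the right of the line in all 3 libraries, while CDH1, EPCAM, KRT5, TP63 and the club, goblet, leukocyte and endothelial markers shown lie at or left of it, apart from library 3 of MUC1.

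RNA of matrix genes was high and that of most inflammatory cytokine genes was low. Of matrix genes 32 of 45 reached 1 RPKM, with SPARC, FN1 and the adhesive THBS1 (104 ± 1.96) on top, then FSTL1 at 93.0 ± 5.68, laminin gamma 1 LAMC1 at 85.0, 81.5 and 92.9 (86.5 ± 5.85) and TGFBI at 62.0 ± 2.99. Proteases and their inhibitors gave 28 of 46: of the lysosomal cathepsins CTSL had 167, 176 and 177 (173 ± 5.50) and CTSZ 142 ± 3.12, the inhibitor TIMP2 57.7 ± 2.13, and CTSB and ADAM9 43.6 ± 0.725 and 43.0 ± 1.55. The elastase MMP12, linked to emphysema, had 0.0760, MMP9 0.0657 and MMP7 no read.

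Cytokines and chemokines were the lowest of the secreted lists, 9 of 43 at or above 1 RPKM with a median of 0.182. The top of the list was HMGB1, a chromatin protein that signals when released, with 117, 119 and 126 (121 ± 4.53), and MIF at 101, 86.4 and 75.7 (87.9 ± 12.9), lowest in library 3 and sharing 61.9% of its exon length with MIF-AS1. CSF1, the macrophage growth factor, had 6.28 ± 0.249, CLCF1 5.85 ± 0.409, IL11 4.67 ± 0.605 and LIF 3.13 ± 0.234, the last 3 being relatives of IL-6. The alarm cytokines stayed below 1 RPKM: IL6 had 0.981, 0.832 and 0.460 in libraries 1 to 3, lowest in library 3, IL1B 0.547, 0.872 and 0.759, IL18 0.655 ± 0.0795 and IL1A 0.0901. CXCL8, the neutrophil chemokine, had 0.273, 0.401 and 0.344 (0.339 ± 0.0642), and IL33, TSLP, CXCL10 and IFNB1 had no read.

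Growth factors gave 44 of 67, or 65.7%, a share near the protein-coding background of 63.2%. HDGF, a nuclear growth factor, had 284, 284 and 307 (292 ± 13.3), the matricellular CYR61 and CTGF 117 ± 1.68 and 47.4 ± 1.74, DKK3 46.6 ± 2.07, the calcium regulator STC2 42.5, 41.9 and 42.2 (42.2 ± 0.309) and TGFB1 35.2, 33.5 and 32.3 (33.7 ± 1.44). The ligands of the EGF receptor placed first in the list were low, EGF at 0.00488, TGFA at 0.440 and AREG at 0.207, with HBEGF at 13.2 ± 0.225 as the exception. Complement and host defence genes gave 12 of 27, and their highest members were intracellular calcium-binding proteins, S100A11 at 319.5, 302 and 340.3 (321 ± 19.2), S100A6 at 200.1 ± 6.76 and S100A10 at 104 ± 3.65, then the mitochondrial C1QBP at 80.4 ± 5.28, clusterin CLU at 44.7 ± 3.14 and the complement shield CD55 at 18.2 ± 0.0780. The central component C3 had 0.836 ± 0.0976.

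The machinery that meets smoke was present in part. Of the AHR pathway 12 of 15 genes reached 1 RPKM, the highest being TXNRD1 and NQO1, which NRF2 also controls. AHR itself had 3.59, 3.77 and 3.38 (3.58 ± 0.195), with 39.2% of its exon length shared, its partner ARNT 8.06 ± 0.425, and its co-chaperone PTGES3 73.0 ± 3.14. Among the target genes, CYP1B1, which oxidises polycyclic hydrocarbons, had 19.2, 19.98 and 21.0 (20.1 ± 0.884), the AHR-directed polymerase TIPARP 13.3, 13.6 and 13.2 (13.4 ± 0.220) and the AHR repressor AHRR 9.26, 8.07 and 8.48 (8.61 ± 0.605). CYP1A1, the textbook target, had 0.148, 0.206 and 0.309 from 49 reads, CYP1A2 2 reads and ALDH3A1 0.0864, 0.0862 and 0.09997. Within each library CYP1B1 was 68 to 130 times as high as CYP1A1. CYP1B1 was above 1 RPKM and CYP1A1 below it in all 3 libraries.

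Cytochrome P450 and other oxidation enzymes were mostly low, 10 of 34, below the protein-coding background. The top was the electron carrier CYB5R3 (38.0 ± 1.81), then CYP1B1, the cholesterol enzyme CYP51A1 (16.5 ± 0.411), which shares 82.2% of its exon length, and the P450 reductase POR (10.1 ± 0.897). CYP2A6 and CYP2A13, which activate tobacco nitrosamines, had no read, allowing up to 0.0207 and 0.0265 RPKM. Aldehyde and carbonyl enzymes gave 27 of 41, with the reductases PTGR1 at 58.9 ± 0.988, CBR1 at 45.1 ± 3.50, AKR1B1 at 45.2, 41.5 and 41.4 (42.7 ± 2.16) and CBR3 at 35.5 ± 4.33, and ADH5, which clears formaldehyde, at 24.6, 24.1 and 23.2 (24.0 ± 0.740). The aldehyde dehydrogenases ranged widely, with ALDH9A1 at 14.8 ± 0.560, ALDH1B1 at 12.1 ± 1.11, ALDH1A3 at 4.89 ± 0.271, ALDH1A1 at 0.518 ± 0.0673 and ALDH2 at 0.290.

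Conjugating enzymes gave 19 of 40. The glutathione transferase GSTP1 led with 61.9, 60.0 and 54.8 (58.9 ± 3.67), followed by the biliverdin reductase BLVRA (31.2 ± 0.679), the epoxide hydrolase EPHX1 (21.5 ± 0.649), TPMT (19.1 ± 0.697) and the microsomal MGST1 (15.9 ± 1.51). GSTM1 had 8 reads and GSTA1 0.320 RPKM, and reads of such near-identical family members are uncertain because the sources used here do not say how multiply mapping reads were treated. Drug transporters gave 12 of 29: ABCC1, which exports glutathione conjugates, had 17.3, 16.8 and 17.3 (17.1 ± 0.312), SLC29A1 6.51 ± 0.463 and ABCG2 1.73 ± 0.0797, while ABCB1, P-glycoprotein, had 3 reads, all in library 2.

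Glutathione, thioredoxin and NRF2 target genes stood high as a group, 53 of 62 at or above 1 RPKM and a median of 14.1, and held 1.15% of assigned reads. After the ferritins came superoxide dismutase SOD1 with 359, 359 and 365 (361 ± 3.74), thioredoxin reductase TXNRD1 with 257, 274 and 269 (267 ± 8.85), peroxiredoxin PRDX1 with 259 ± 12.8, and the quinone reductase NQO1 with 246, 252 and 240.2 (246 ± 6.005). PRDX1 overlapped both TXNRD1 and NQO1, and TXNRD1 lay above NQO1 in every library. PRDX5 had 253, 229 and 202 (228 ± 25.7), TXN 132, 126 and 118 (125 ± 7.10), the pentose phosphate enzyme PGD 121, 119 and 119.9 (120.1 ± 1.05) and GPX4, which reduces lipid peroxides, 122, 111 and 117 (117 ± 5.27). NRF2 itself (NFE2L2) had 14.0, 14.5 and 14.2 (14.2 ± 0.211) and its inhibitor KEAP1 12.5 ± 1.251. Glutathione synthesis was uneven in level: GSS had 70.5 ± 2.28, the modifier subunit GCLM 12.1 ± 0.786, the catalytic subunit GCLC 2.19 ± 0.0781 and the cystine carrier SLC7A11 13.6, 14.7 and 13.4 (13.9 ± 0.706).

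Some genes often grouped with NRF2 were low or varied. AKR1B10 had 2.12 ± 0.213, AKR1C1 0.110 and GPX2 0.0701 from 8 reads. HMOX1, the heme oxygenase, had 40.2, 46.1 and 28.9 in libraries 1 to 3 (38.4 ± 8.76), with library 3 low and library 2 high, and its coefficient of variation (CV, SD over mean) of 22.8% was the third largest of protein-coding genes at or above 10 RPKM, against 2.30% from read counting.

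**Figure D3:**
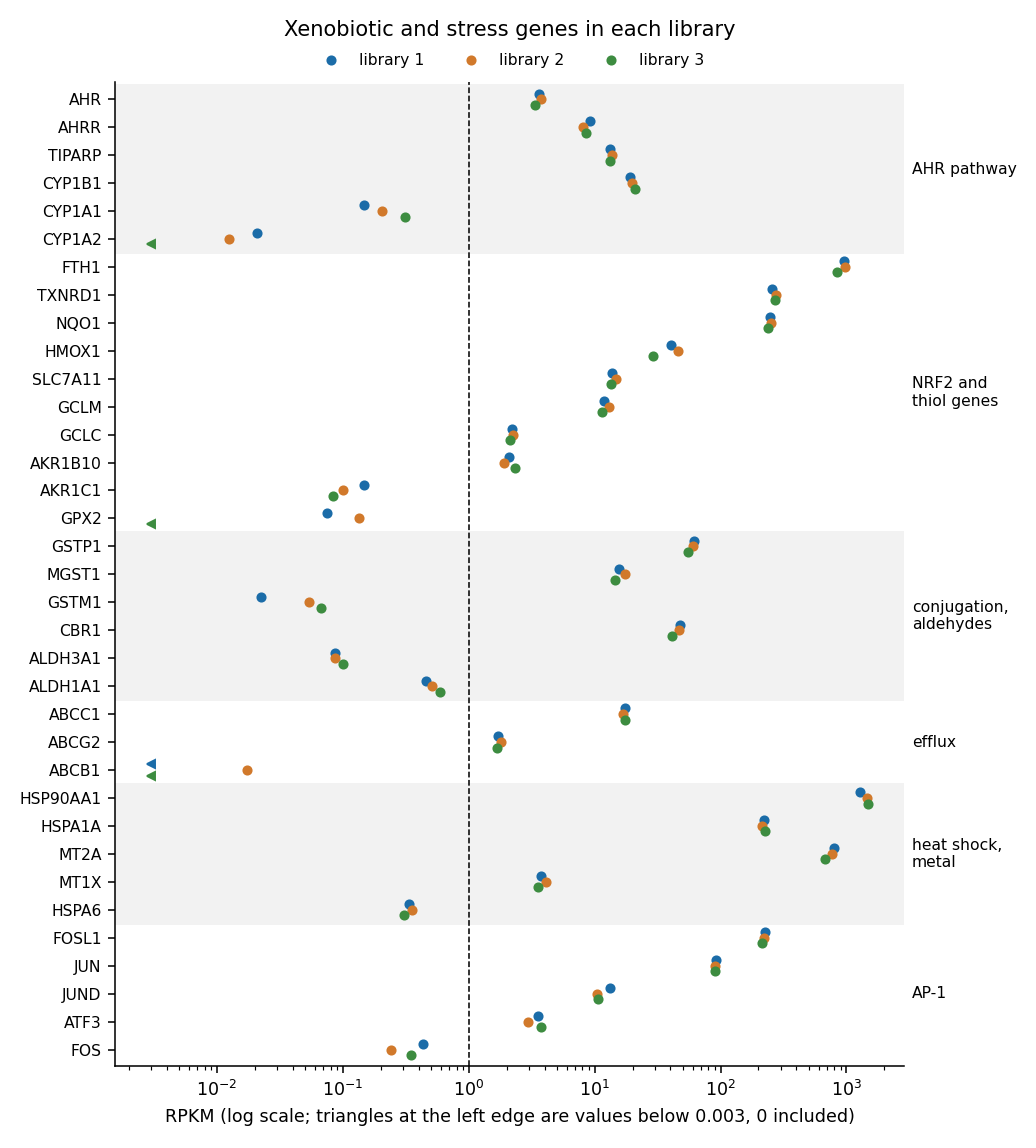
RPKM of xenobiotic and stress genes in each of the 3 libraries (1 point per library, log scale, dashed line at 1 RPKM). CYP1B1, NQO1, TXNRD1, FTH1, MT2A and FOSL1 lie right of the line in all 3 libraries, while CYP1A1, AKR1C1, GSTM1, ALDH3A1, ABCB1 and FOS lie left of it.

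In 8 of the 9 stress lists the share of members at or above 1 RPKM was larger than the protein-coding background, the exception being the interferon-stimulated genes. Heat shock proteins, mostly cytosolic with HSPD1 and HSPE1 of mitochondria among them, gave 28 of 34 with a median of 35.6 RPKM and 2.098% of assigned reads. Below the HSP90 genes were the co-chaperone DNAJA1 with 547, 592 and 627 (589 ± 40.1), the constitutive HSPA8 with 418, 427 and 417 (421 ± 5.79), the inducible HSPA1A with 219, 212 and 226 (219 ± 6.93) and the mitochondrial HSPD1 with 197 ± 6.16. HSP90AA1, HSP90AB1 and DNAJA1 were each lowest in library 1 and highest in library 3. HSPA1A and HSPA1B are near-identical copies, so the split of reads between them is uncertain. The strictly inducible HSPA6 stayed at 0.333, 0.356 and 0.307 RPKM.

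Genes of endoplasmic reticulum stress, chaperones and sensors, gave 25 of 26: after CALR came HSP90B1 with 474, 484 and 537 (498 ± 33.7), CANX with 205 ± 6.92, HSPA5 (BiP) with 116, 122 and 117 (118 ± 3.40), PDIA4 with 113 ± 1.63 and P4HB with 112 ± 2.58. ERN1, the sensor IRE1, was the member below 1 RPKM (0.486). Integrated stress response genes gave 27 of 29. Their regulator ATF4 had 174, 166 and 165 (168 ± 5.11), and PPP1R15A, which turns the response off, 135, 142 and 154 (144 ± 9.83), higher in library 3 than in library 1. SLC3A2 had 79.4 ± 7.15, EIF2AK1, the heme-regulated kinase, 37.5 ± 0.758 and the serine enzyme PHGDH 35.2 ± 1.022. CHAC1 and GDF15 were below 1 RPKM, at 0.432 and 0.447.

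Metallothioneins bind zinc, copper and cadmium, a metal of smoke. MT2A had 792, 770.2 and 675 (746 ± 62.1) RPKM, lowest in library 3. It stood 36.0 ± 1.44 times as high as MT1E (20.7 ± 1.31) and 196 ± 14.1 times as high as MT1X (3.80 ± 0.282), while MT1F had 0.227. These genes are similar in sequence, and the split of reads between them is uncertain, which the SD does not cover. MT1A, MT1B, MT1G, MT1H, MT1M, MT3 and MT4 were not matched to a row. The zinc carriers SLC39A7 and SLC39A6 had 71.7 ± 1.37 and 31.7 ± 1.19, and 17 of 22 of the metal list passed 1 RPKM. FTL, like MT2A, was lowest in library 3, with 881, 853 and 676.

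The AP-1 family, to which JunD belongs, had FOSL1, ATF4 and JUN as its highest members. FOSL1 (FRA-1) had 224, 222 and 213 (219 ± 5.57) RPKM, JUN 91.9, 91.2 and 90.7 (91.2 ± 0.601), FOSL2 15.1 ± 0.5504 and JUND 13.2, 10.5 and 10.6 (11.4 ± 1.55), highest in library 1. FOSL1 stood 19.4 ± 2.19 times as high as JUND and JUN 8.06 ± 0.967 times. ATF5 and ATF1 had 25.4 ± 1.13 and 13.8 ± 0.960. ATF3 had 3.42 ± 0.426, JUNB 1.48 ± 0.469, and the immediate early genes FOS and FOSB 0.435, 0.240 and 0.346 and 0.223, 0.109 and 0.171 RPKM. 18 of 23 AP-1 genes reached 1 RPKM.

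NF-kB subunits and feedback genes gave 19 of 24, led by the adaptor TNIP1 (45.6 ± 0.724), IKBKG (28.1 ± 1.04), RELA (26.8 ± 1.47) and TNIP2 (22.4 ± 1.021), with the inhibitor NFKBIA at 12.6 ± 0.213 and the feedback gene TNFAIP3 at 0.549. Interferon-stimulated genes gave 29 of 46, a share near the background, and their top was antigen presentation: HLA-C had 184, 165 and 164 (171 ± 11.5), HLA-B 93.0 ± 6.83, HLA-E 47.9 ± 1.67 and B2M 35.1, 33.3 and 31.6 (33.4 ± 1.74). These HLA genes are similar in sequence, and reads between them are uncertain. IFI27, IFI44 and IFI44L, sensitive interferon targets, had 0.0912, 0.447 and 0.00838.

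DNA damage response genes gave 36 of 43: the base-excision enzyme APEX1 had 233, 226 and 231 (229.8 ± 3.83), PARP1 72.4 ± 3.27, PCNA 54.98 ± 1.83, PLK2 49.5 ± 1.87, GADD45A 33.6, 32.9 and 32.2 (32.9 ± 0.730) and ERCC1 26.7 ± 1.001. CDKN1A had 7.05 ± 1.36 and MDM2 2.67 ± 0.0356. Hypoxia and glycolysis genes gave 30 of 36: after GAPDH came ENO1 (575 ± 19.1), TPI1 (478 ± 11.7), PKM (341 ± 7.78), LDHB (236 ± 6.38) and ALDOA (82.8 ± 8.52). The hypoxia marker CA9 had a single read.

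Of the receptor lists, integrins and adhesion receptors had the largest summed level, 952 RPKM, and neurotransmitter receptors the smallest, 15.3 RPKM. Among receptor tyrosine kinases 18 of 40 reached 1 RPKM. AXL, the receptor of GAS6, had 199, 195 and 182 (192 ± 8.74) and stood 13.6 ± 0.385 times as high as EGFR (14.1 ± 0.257). EPHA2 had 22.9, 21.1 and 19.7 (21.2 ± 1.59), the HGF receptor MET 19.4, 19.7 and 19.7 (19.6 ± 0.174), PTK7 12.7 ± 0.770, EPHB2 9.35 ± 0.433, EPHB4 8.92 ± 0.603 and ERBB2 8.37 ± 0.837. PDGFRB had 5.65 ± 0.477 and FGFR1 5.30 ± 0.161, and ERBB3 0.691.

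Integrins and adhesion receptors gave 32 of 46. ITGB1, the common beta chain, had 164, 167 and 165 (165 ± 1.49), the tetraspanin CD63 134, 134 and 101 (123.1 ± 18.95), lowest in library 3, basigin BSG 91.3, 88.5 and 84.2 (87.999 ± 3.57), the hyaluronan receptor CD44 66.3, 70.1 and 65.3 (67.2 ± 2.52), and the laminin receptor chain ITGA3 57.7, 53.7 and 53.04 (54.8 ± 2.52). ITGB1 stood 144 ± 16.2 times as high as ITGB4, the partner of ITGA6 in hemidesmosomes. SDC4, PLAUR, CD9 and SDC1 lay between 38.4 and 40.3 RPKM, within each other's spread. ITGA1 had 0.137.

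Cytokine and death receptors gave 27 of 52. The lymphotoxin receptor LTBR had 46.5, 43.3 and 46.4 (45.4 ± 1.82), the TWEAK receptor TNFRSF12A 34.5, 33.5 and 29.0 (32.3 ± 2.92), the TNF receptor TNFRSF1A 29.3, 28.9 and 26.6 (28.3 ± 1.42), IL7R 22.98, 23.6 and 24.98 (23.9 ± 1.0204) and the shared IL-6 family chain IL6ST 16.6 ± 0.361. IL6R had 0.525 and IL11RA 0.435. Of the interferon receptor chains IFNGR2 stood at 12.0 ± 0.726, IFNAR1 at 10.9 ± 0.748 and IFNGR1 at 7.68 ± 0.145, while IL13RA1 had 11.9 ± 0.277. The IL-1 receptor IL1R1 had 0.688 ± 0.0151 and the IL-33 receptor IL1RL1 no read.

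Sensors of microbes were low, 13 of 30: IFI16 had 11.3 ± 0.400, the adaptors MAVS 7.92, 7.76 and 7.43 (7.70 ± 0.253), TICAM1 6.04 ± 0.192 and MYD88 5.02 ± 0.154, and DDX58 (RIG-I) 2.598 ± 0.204. TLR4 had 1.53, 1.48 and 1.26 (1.42 ± 0.147) but its cofactor CD14 0.274, and TLR3 0.0457, TLR5 0.0162 and TLR9 0.0126. Receptors of the TGF-beta, BMP, WNT, NOTCH and hedgehog pathways gave 17 of 33: FZD6 had 25.9, 24.7 and 29.3 (26.6 ± 2.37), ENG 20.3, 19.1 and 18.0 (19.1 ± 1.14), TGFBR2 11.4, 10.9 and 11.1 (11.1 ± 0.263), NOTCH2 10.7 ± 0.560, LRP5 9.09 ± 0.742 and TGFBR1 6.89 ± 0.280. BMPR1B and ACVRL1 had no read.

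Neurotransmitter receptors gave 5 of 39, the lowest share among the receptor lists, with a median of 0.0287 RPKM. The histamine receptor HRH1 was highest with 4.96, 4.67 and 4.87 (4.84 ± 0.150), then RAMP1 (2.17 ± 0.426) and HTR1D (1.96 ± 0.260). The nicotinic subunit CHRNA5 had 1.40, 1.32 and 1.251 (1.33 ± 0.0751), with 28.4% of its exon length shared. The muscarinic CHRM1 had 2 reads. Other G protein-coupled receptors gave 17 of 46: the thrombin receptor F2R had 14.4, 14.5 and 14.6 (14.5 ± 0.103), the retinoic-acid-induced GPRC5A 13.5, 13.5 and 12.9 (13.3 ± 0.356), ADGRE5 7.78 ± 0.575 and the oxytocin receptor OXTR 6.14, 6.98 and 7.39 (6.83 ± 0.639). The prostaglandin receptors PTGER2 and PTGER4 had 0.497 and 0.921.

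Ion channels and irritant sensors gave 13 of 35. Intracellular and housekeeping channels led, CLIC1 with 127, 125 and 109 (120.3 ± 10.2), VDAC1 with 85.9 ± 3.88 and CLIC4 with 59.0 ± 3.50. The stretch channel PIEZO1 had 18.1, 16.6 and 17.2 (17.3 ± 0.760). The sensors of irritants in smoke, TRPA1 and TRPV1, had 0.0885, 0.0424 and 0.0175 and 0.377, 0.329 and 0.214. Nuclear receptors gave 23 of 37: NR2F2 had 37.1, 36.6 and 37.4 (37.1 ± 0.408), the oxysterol receptor NR1H2 21.2 ± 1.36, PPARD 19.8, 19.6 and 20.1 (19.8 ± 0.287), THRA 9.18 ± 0.680 and the glucocorticoid receptor NR3C1 7.67, 7.32 and 7.69 (7.56 ± 0.208). Its relative NR3C2 had 0.0159 and the estrogen receptor ESR1 2 reads. Receptors used by viruses and toxins gave 22 of 27, with CTSL, BSG and PLAUR on top, PVR at 29.6, 29.7 and 30.6 (29.97 ± 0.568), TFRC at 24.5 ± 0.812, ANTXR1 at 20.8 ± 0.312 and NRP1 at 13.8 ± 0.535, while TMPRSS2 had a single read.

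**Figure D4:**
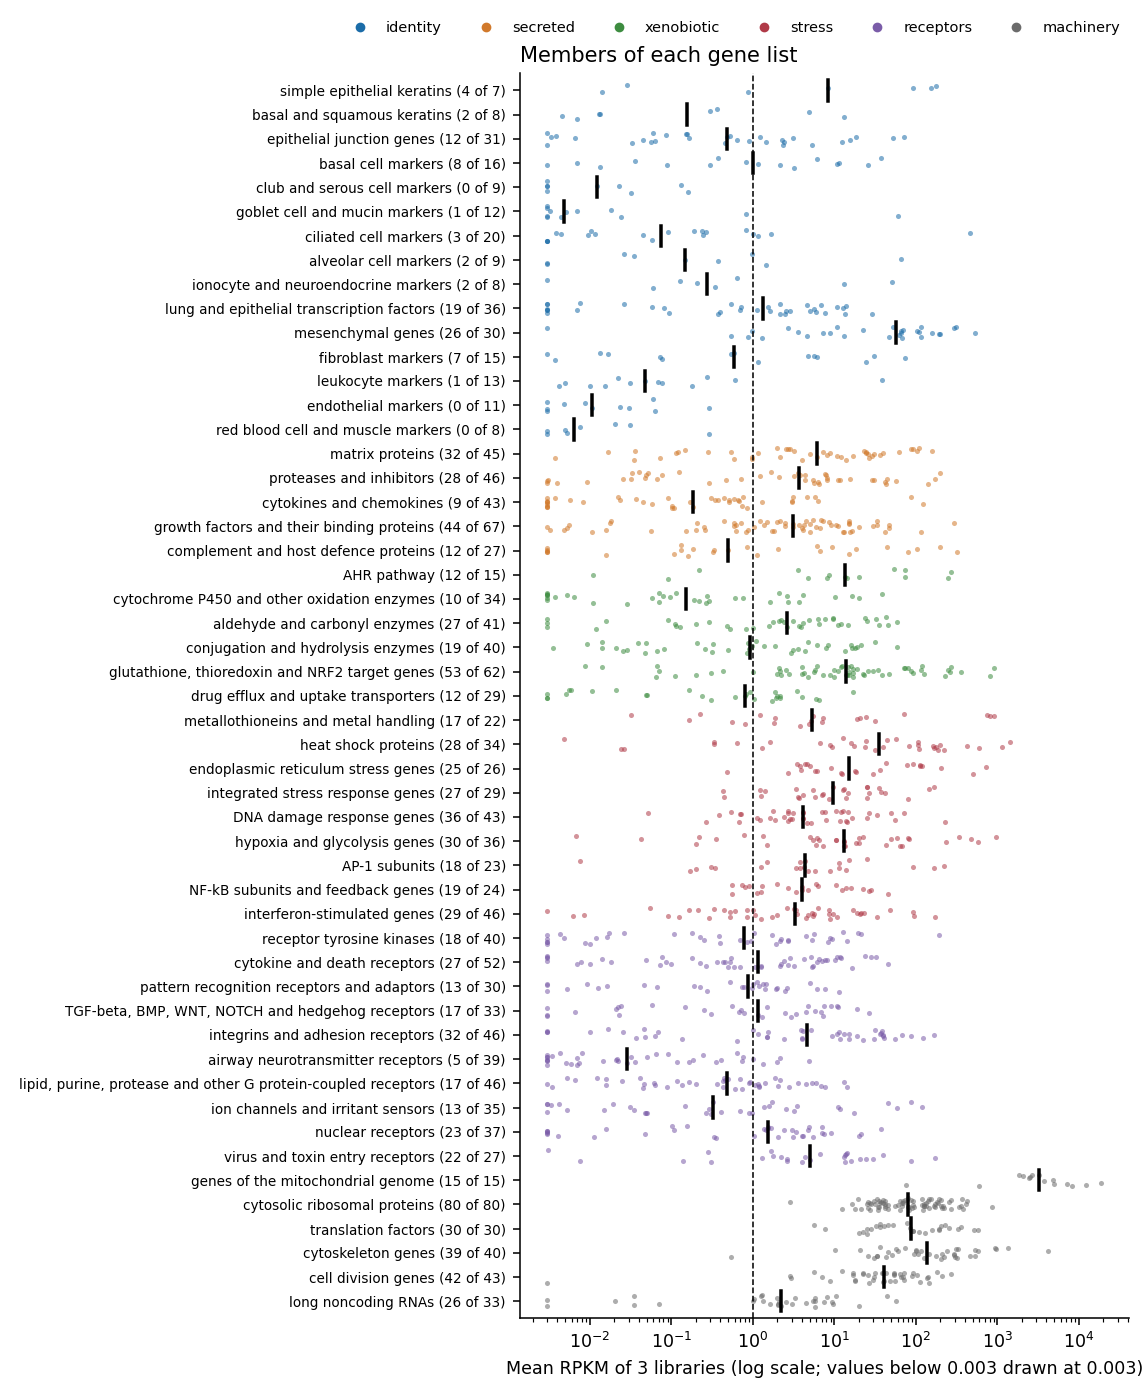
Mean RPKM of every matched member of the 51 gene lists (1 point per gene, log scale, values below 0.003 drawn at 0.003), with the median of each list as a black bar, 1 RPKM as a dashed line and, in brackets, the members at or above 1 RPKM of those matched. Cytoskeleton, translation, ribosomal and mitochondrial lists lie right of the line almost whole, while club, goblet, leukocyte, endothelial and neurotransmitter receptor lists lie mostly left of it.

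Lists of growth and housekeeping genes had nearly all their members above 1 RPKM. Cell division genes gave 42 of 43: HMGB2 had 250.1, 263 and 287 (267 ± 18.7), STMN1 208 ± 11.9, MYBL2 179 ± 12.7, CCNB1 142, 148 and 139 (143 ± 4.84), the proliferation marker MKI67 135, 136 and 148 (139.5 ± 7.02) and TOP2A 132, 138 and 146 (139 ± 7.30). The exception was CCND2, a D-type cyclin with no read in any library (up to 0.00643 RPKM). All 30 translation factors passed, with EEF1A1 at 582 ± 45.2 and EEF2 at 519 ± 15.6, while cytoskeleton genes gave 39 of 40 and the list held 4.84% of assigned reads. Long noncoding RNAs gave 26 of 33, against 383 of 1476 names matched as lncRNA, or 25.9%: NORAD had 57.3, 55.7 and 56.1 (56.4 ± 0.838), RPPH1 44.5 ± 2.72, SNHG6 20.1 ± 1.35 and MALAT1 9.76, 8.84 and 9.91 (9.50 ± 0.579).

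Ribosomal proteins, which form 1 complex in equal numbers, were all above 1 RPKM (80 of 80) but lay far apart. The median was 81.0 RPKM and 36 of the 80 genes lay within 2 times of it. RPL23A had 846, 879.9 and 830.0 (852 ± 25.5) over 2824 bases of exon, and RPS29 3.27, 2.91 and 2.29 (2.82 ± 0.493) over 9783 bases. The ratio of the 2 was 308 ± 51.7 on the RPKM scale. In assigned reads, with no length in the measure, RPL23A had 157849 and RPS29 1811. The part of exon length, shared bases and multiply mapping reads in this range was not tested.

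The libraries lay close together. The median CV of genes at or above 10 RPKM was 4.86%, against 2.36% from read counting alone. It fell from 7.22% between 1 and 10 RPKM (counting alone 6.04%) to 4.51% between 100 and 1000 RPKM (counting alone 1.06%). The spread was thus nearer to that of counting for low genes and several times it for high genes. The counting value is the expected SD over the mean. A median CV of 3 libraries lies below that value when counting is the only source, so the spread beyond counting is understated. Library 3 was the one farthest from the middle value for 56.2% of the 3634 protein-coding genes at or above 10 RPKM, library 1 for 26.3% and library 2 for 17.5%. Without library 3 the median CV of genes at or above 10 RPKM was 2.69%, without library 1 4.47% and without library 2 5.37%. Each of these comes from 2 libraries, whose median CV tends to be smaller than that of 3. They can be set beside each other but not beside the 4.86%. Leaving out library 2 also took away the deepest library. No protein-coding gene at or above 10 RPKM differed by over 2-fold between any 2 libraries.

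The departure of library 3 moved with exon length. Of the protein-coding genes at or above 10 RPKM with a promoter entry, in the 770 with the shortest exons (median 1990.0 bases) library 3 lay a median log2 difference of -0.06 from the mean of the 3 libraries, and in the 770 with the longest (median 8448.5 bases) 0.03. Library 1 went the other way, 0.04 and -0.02, and so did library 2, 0.02 and -0.01. Departures from a mean of the same 3 libraries offset each other by construction. The departure of library 3 was not tied to exon length alone. It also moved with promoter GC content, over a smaller range. From the lowest to the highest of 4 GC classes library 3 lay at -0.00072, -0.0099, -0.018 and -0.022. Library 1 lay at -0.0088, 0.0040, 0.0084 and 0.021. Whether length and GC content act apart was not tested. FTL (878 bases), MT2A (1299 bases) and MIF, lowest in library 3, are short genes, and the part of length in their values was not tested.

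**Figure D5:**
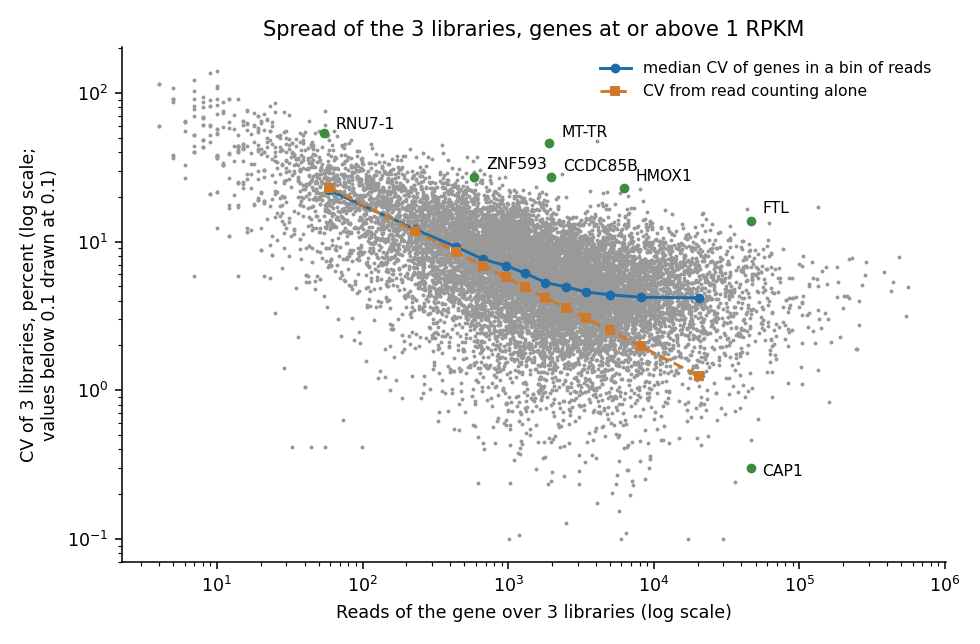
CV of the 3 libraries against the reads of each gene at or above 1 RPKM, both on a log scale (grey points, values below 0.1% drawn at 0.1%), with the median in bins of reads (blue) and the CV that read counting alone gives (orange). The medians follow counting for genes of few reads and level off near 4% for genes of many reads, with HMOX1, CCDC85B, ZNF593 and FTL above them and CAP1 below.

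The genes with the largest spread were mostly small RNAs. The 10 largest CVs at or above 10 RPKM ran from 53.7% for RNU7-1 (12.5, 18.2 and 5.33 RPKM, 54 reads in all) to 36.3% for MIR221 (8.72, 10.1 and 16.8, 83 reads), and included MIR7106, MIR6862-2, CTD-3149D2.4 and TUG1_2, each with under 200 reads, and the mitochondrial transfer RNAs MT-TA and MT-TN, both low in library 3. RNU7-1, MIR7106, TUG1_2 and CTD-3149D2.4 share all their exon bases with another name, so whose reads varied cannot be told. The other two had a spread 17.4 and 11.6 times that of counting: CH507-513H4.5 had 107, 60.7 and 42.1 and MT-TR 356, 344 and 728, high in library 3. Among protein-coding genes, named after their values were seen, ZNF593 (14.1, 12.4 and 8.00), CCDC85B (23.9, 21.1 and 13.6), HMOX1, PPP4C (53.7, 46.8 and 33.7) and UBE2M (35.3, 32.6 and 22.8) varied most, each lowest in library 3. The steadiest protein-coding gene at or above 100 RPKM was CAP1, an actin-cycling protein, at 186, 186 and 187 RPKM and a CV of 0.299%.

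The authors' JunD peak list was set beside these levels. It holds 61360 peaks of 1 JunD ChIP library over 1 input library, with no replicate, and a gene was counted when a peak lay within 1 kb of its outermost start. In protein-coding genes the share with a peak was 8.83% at 0 reads (95% exact Clopper-Pearson interval 6.74 to 11.3%), 7.47% (6.76 to 8.22%) below 1 RPKM, 7.81% (7.15 to 8.50%) from 1 to 10 RPKM, 7.54% (6.66 to 8.49%) from 10 to 100 and 7.23% (4.64 to 10.7%) at 100 or more. The intervals, which cover counting error only, overlap in this window, and a change of the share with level was not tested. With the authors' q-value below 0.05 the share lay between 0.302% and 0.64% in every class. Within 5 kb it was 27.8% (24.3 to 31.4%) at 0 reads and 24.2% (23.1 to 25.4%) below 1 RPKM, against 20.02% (19.03 to 21.03%), 19.1% (17.7 to 20.4%) and 19.8% (15.6 to 24.6%) in the classes above. In this wider window the intervals at 0 reads and below 1 RPKM lay above those from 1 to 10 and 10 to 100 RPKM. The interval at 100 or more overlapped them. A total of 761 protein-coding genes at or above 1 RPKM had a peak within 1 kb, and 51 of the 761 had q below 0.05. Their share by class is given above, beside the 8.83% of genes with 0 reads. In the authors' deposited table the largest fold enrichments among the 761 genes were 6.22 at PQLC3 and 6.21 at POLR2C, a subunit of RNA polymerase II. LOX, the collagen cross-linking enzyme, had 5.45. Their levels were 1.41 ± 0.243, 8.47 ± 0.702 and 2.77 ± 0.264 RPKM (SD, n = 3), and they were named after their values were seen.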

How the data were processed

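Total RNA of 3 libraries of empty-vector BEAS-2B cells exposed to CSE was sequenced. The authors deposited RPKM values with each gene's exon coordinates and summed exon length. The submitters' processing notes name GRCh38 as the build and, without saying what each did, STAR 2.5.3a, Trimmomatic 0.36, bedtools 2.25.0, MACS2 2.1.1, featureCounts and Subread 1.5.1. The sources used here state neither the annotation release, nor the strand setting, nor how multiply mapping reads were treated. Read numbers were recovered from the RPKM steps: 100% of values came within 0.01 read of a whole number. They gave depth, the spread expected from counting (a Poisson estimate, tested on simulated data) and the limit of 3 reads for a count of 0. Within a library TPM is RPKM times a single factor. In the authors' peak list, per the file headers, each peak has a fold enrichment, a ratio, and a q-value, and both were used only to filter and describe peaks.

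Mean, SD and CV are over 3 libraries, with no test. Names were matched to RefSeq biotypes by symbol, 21037 of 29534. A name was marked as sharing exons at 20% or more of its exon length. Of 1792 entries in 51 gene lists, 1591 were matched, and the rest were not analysed here. Some matched members are counted but not reported here by name. Text names come from 1 rule: the 20 highest nuclear protein-coding genes, the 10 highest nuclear names matched to a noncoding biotype, the 10 largest CVs at or above 10 RPKM, JUND, the printed promoters, up to 6 top members of a list (12 for identity, xenobiotic and receptor lists) and its first 6 members below 1 RPKM. Other names, such as HMOX1, ALDH9A1, CCDC39, CPA3, RPS29, CXCL8, HBEGF, KEAP1, GSS, GCLC and ZEB1, were chosen after their values were seen. The genes and lists were chosen with earlier results of these data known. The 3 libraries of JunD-transfected cells were not used. Python 3.11.15, pandas 2.3.3, NumPy 2.4.6 and SciPy 1.17.1 were used. Alternatives were other minimums, TPM, the read total without mitochondrial genes, each library left out, median-of-ratios scaling, and other peak filters and windows.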

Additional observations from a re-analysis of the deposited data

How the results depend on the processing

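The 13049 names at or above 1 RPKM became 12532 when every library had to reach it, 13556 when any did, 15018 at 0.5 RPKM, 10725 at 2 RPKM, 15928 in TPM and 13213 with mitochondrial genes left out of the read total, and ran from 12992 to 13073 with 1 library left out. Counting only names that share under 20% of exon length, an alternative chosen after seeing the data, gave 10073. In TPM, whose values are larger by construction, 8362 names reached 10, 1402 reached 100 and 102 reached 1000. The share of the 10 highest names was 7.82% without the mitochondrial genome and 6.02% of assigned reads, and that of the 100 highest 26.2% and 21.8%. The median CV was 5.002% under median-of-ratios scaling. It ran from 2.69% to 5.37% with 1 library left out, values of 2 libraries that are not on the scale of 3. The peak share at 0 reads, below 1, 1 to 10, 10 to 100 and 100 or more RPKM was 0.315%, 0.390%, 0.640%, 0.302% and 0.314% at q below 0.05 and 27.8%, 24.2%, 20.02%, 19.1% and 19.8% within 5 kb. Counts of listed members over each of the 6 sections moved by less than 1.5 times under every alternative. Of the 51 single lists, 7 moved by more in TPM, 5 at 0.5 RPKM and 6 at 2 RPKM, and none with a library left out. No paired analysis was possible because the result comes from no test and only 1 group was used. Levels between genes depend on the annotated exon length, and genes of under about 100 reads are limited by depth.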

Other observations

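The share of protein-coding names at or above 1 RPKM differed between chromosomes. It was lowest on chromosome 19, 55.7% (665 of 1193, 95% exact Clopper-Pearson interval 52.9 to 58.6%), and low on chromosome 4 at 57.3% and on X at 57.9%. It was highest on chromosome 21, 71.0% (103 of 145, 62.9 to 78.3%), and stood at 68.4% on chromosome 20 and 68.1% on chromosome 5. Chromosome 20 had the highest median level of the autosomes and X, 4.35 RPKM, and chromosome 19 the lowest, 1.38 RPKM. These intervals treat genes as independent, which neighbouring genes of a cluster are not.

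Exon length also differed with level. The median was 2971 bases in protein-coding genes at or above 100 RPKM, 5032.5 in those at or above 1 and 4242.5 in those below 1. Some pseudogene names held reads: 368 of 2617, or 14.1%, reached 1 RPKM, against 44.2% of all names. The highest were MTATP6P1 at 2329 ± 91.0 and PPIAP22 at 1165 ± 45.6. How reads were shared with their parent genes was not tested, so these values do not show that the pseudogenes were transcribed.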
